A study of Mus musculus with 12 samples.

Results

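The 10 genes examined here encode the machinery with which a cell displays peptides on major histocompatibility complex (MHC) class II molecules: the chains H2-Aa, H2-Ab1 and H2-Eb1, the invariant chain Cd74, the peptide editors H2-DMa, H2-DMb1, H2-DMb2, H2-Oa and H2-Ob, and the transactivator Ciita. They were taken by name from a table of normalized counts that lists 29486 genes, and all 10 were found there and had at least 10 normalized counts in at least 1 condition, as did 15614 genes of the table. The samples were 12 libraries of polyadenylated RNA from primary splenic B cells of C57BL/6Babr mice, isolated with a B cell kit. All were activated with the bacterial mitogen LPS (10 μg/ml). In the condition LPS the cells received LPS alone for 48 h, in LPS + etoposide (LE) they received LPS for 48 h and etoposide (20 μM) for 4 h, and in LPS + KU55933 + etoposide (LEKU) they received LPS for 47 h, KU55933 (10 μM) for 1 h and then etoposide (20 μM) for 4 h. Etoposide is a topoisomerase II poison that leaves double-strand breaks in DNA, and KU55933 inhibits ATM, the kinase that signals such breaks. One label field spells the inhibitor KU59933. The labels number 4 replicates in each condition and give no group with KU55933 and without etoposide, and leave it unstated if the LPS cells without drug were kept for the further 4 h.

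Class II molecules carry peptides from the endocytic pathway to the cell surface, where CD4+ T cells read them, and a B cell uses them to obtain T cell help. Newly made alpha and beta chains associate with the invariant chain, which blocks the groove and directs the complex to endosomes. Proteases then cut the invariant chain down to a short fragment that H2-M exchanges for antigenic peptide, and H2-O holds H2-M back. Ciita binds no DNA itself. It joins RFX, CREB and NF-Y proteins assembled on the X and Y boxes of class II promoters, and it is known as the factor whose presence sets whether these genes are transcribed. C57BL/6 mice carry a defective I-E alpha gene, so that their H2-Eb1 mRNA yields no I-E molecule at the surface.

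To show where those boxes lie, RefSeq promoter windows (build GRCm38.p6, 250 bases before to 50 bases after an annotated start) were searched on both strands. The X box was written as AG, any 2 bases, AC, any 3 bases, TG, and the Y box as ATTGG, and neither spelling is contained in the other. Windows of 7 of the members were searched, 8 in all. No window was found for H2-Ab1 and Ciita, and that of Cd74 is not reported here. H2-DMa had 2 windows. Of these 2, 1 held no Y spelling, and in the other it began 198 bases before the annotated start. The Y spelling occurred in a window of all 7, the X spelling in those of 4 (H2-Eb1, H2-DMb1, H2-Oa and H2-Ob), and an X followed by a Y on the same strand, with starts at most 40 bases apart, in those of 3. Of all 32851 windows of this length, 37.4% held the Y spelling, 14.8% the X spelling and 0.563% the ordered pair. The 3 stretches with the pair are shown first, with the matches on the printed strand in capitals. H2-Eb1 held 2 Y matches, and the one on the opposite strand, near the end of its stretch, is left in lower case. Then follow the stretches of H2-DMb2, the near copy of H2-DMb1, and of H2-Aa, in which only the Y spelling matched.
H2-Eb1 (chr17:34305758-34305837, + strand): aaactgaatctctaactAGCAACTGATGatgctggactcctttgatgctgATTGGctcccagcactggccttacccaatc
H2-DMb1 (chr17:34153080-34153159, + strand): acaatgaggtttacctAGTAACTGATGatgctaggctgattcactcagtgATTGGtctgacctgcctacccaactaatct
H2-Ob (chr17:34238798-34238877, + strand): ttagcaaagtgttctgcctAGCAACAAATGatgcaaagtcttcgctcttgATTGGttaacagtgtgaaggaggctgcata
H2-DMb2 (chr17:34145109-34145188, + strand): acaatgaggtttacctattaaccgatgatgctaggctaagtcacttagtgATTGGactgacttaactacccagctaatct
H2-Aa (chr17:34287842-34287921, - strand): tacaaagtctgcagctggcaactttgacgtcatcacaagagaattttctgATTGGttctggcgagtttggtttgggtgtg

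The X and Y matches started 33 bases apart in H2-Eb1, 34 in H2-DMb1 and 31 in H2-Ob, and the Y match began 59, 61 and 57 bases before the annotated start. In H2-Aa it began 48 bases and in H2-DMb2 90 bases before the start. A match describes letters and no occupied site, and a missing match says only that these letters were not in this window.

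Each column of the table stands for 1 library, but within a condition all columns were proportional over the genes (log2 deviations of at most 1.4e-14). The values are thus a fitted value of the condition times a factor of the library, and they hold no spread between the 4 replicates. No SD or test is given for this reason, and a single value per condition is printed, computed from the 4 columns after division by library factors (normalized count). A gene is called lower or higher, and is said to have fallen or risen, where log2(normalized count + 1) differed by at least 1.5-fold. That fold is a rule of size and says nothing about replicate error. Counted in units of 1000000, column totals ran from 20.4 to 30.6, and the factors from 0.838 to 1.3. No Illumina index was used in more than 1 condition, so that index and condition cannot be told apart. Less RNA per cell and fewer cells of a kind cannot be told apart in bulk RNA either.

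The first comparison asked which class II genes differed after etoposide (LE against LPS). Of the 10 members, 7 fell by at least 1.5-fold (70%) and none rose, beside 14.4% lower and 23.4% higher of all 15614 genes. Ciita fell most, to 25.3% of its LPS value, followed by H2-DMb2 (40.4%) and H2-Ob (45.0%), while H2-Eb1 held 95.9% and Cd74 89.3%. The median log2 difference of the members was -0.67, with a range from -1.98 to -0.06, and that of all genes was 0.04. All 10 differences were below 0, but that of H2-Eb1 turned positive with library totals, with quantile normalization and with the columns undivided, and that of Cd74 with the columns undivided. The calls of H2-Ab1 and H2-DMa were also lost under quantile normalization, that of H2-DMa with library totals, and those of these 2 genes, H2-DMb1 and H2-Oa with the columns undivided.

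The second comparison asked what differed when ATM was inhibited before etoposide (LEKU against LE). Of the members only H2-Ob rose by at least 1.5-fold (10%), and none fell, beside 6.93% higher and 11.9% lower of all genes. The median log2 difference was 0.20 for the members, with a range from -0.08 to 0.92, and -0.05 for all genes. In LEKU against LPS, 3 members were lower (30%), namely Ciita, H2-DMb2 and H2-Ab1, and none was higher, beside 14.2% lower and 22% higher of all genes. The median of the members was then -0.40, from -1.80 to -0.14, beside 0.07 for all genes. These comparisons share the LE or the LPS libraries with the first, so that a low LE value alone gives a negative difference in one and a positive one in the other, and the values below are set side by side without a test of their relation.

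**Figure D1:**
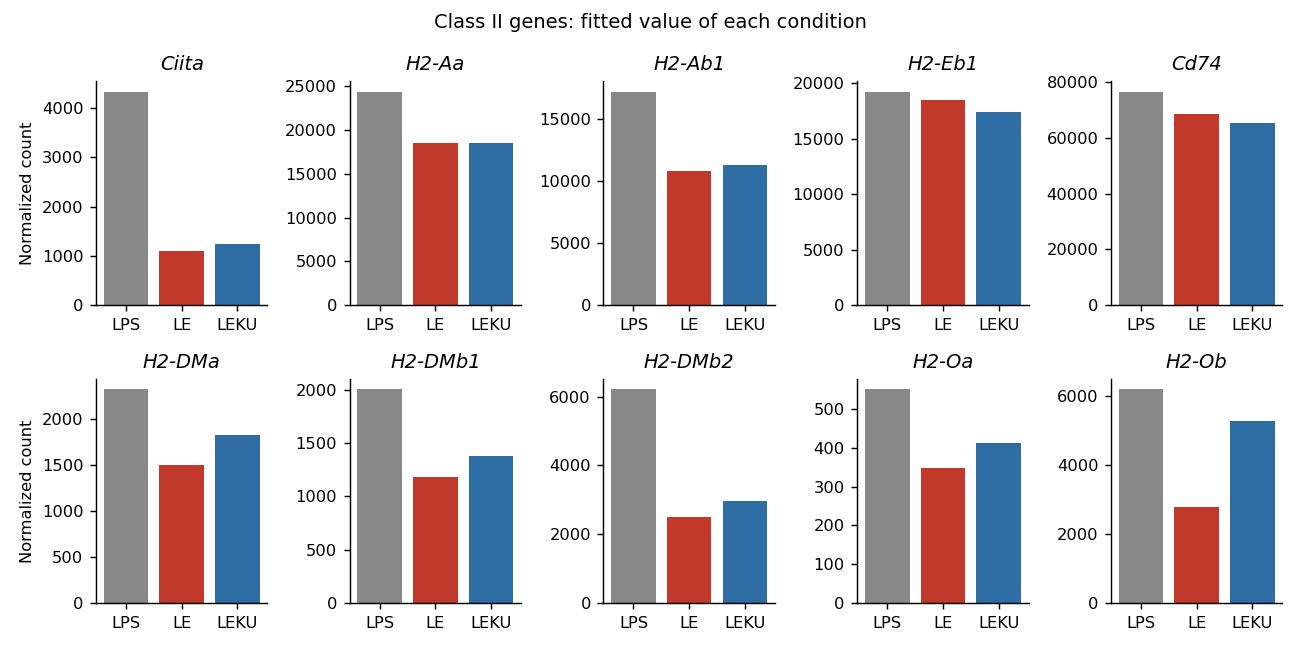
Normalized count of each class II gene in LPS, LE and LEKU, 1 panel per gene with its own linear axis from 0. Each bar is the single fitted value of a condition, so that there is no error bar. Ciita stands at 4334 in LPS against 1095 and 1243 with etoposide, whereas H2-Ob returns from 2780 in LE to 5262 in LEKU.

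Ciita (ENSMUSG00000022504, GRCm38 chromosome 16, 10480059 to 10528418, plus strand, 24 exon blocks) had 4334 normalized counts in LPS, 1095 in LE and 1243 in LEKU. Its deposited columns ran from 3631 to 4191 in LPS, from 1048 to 1423 in LE and from 1119 to 1374 in LEKU. Columns of 1 condition differ by the library factor alone, so that these ranges are no replicate error. The log2 differences were -1.98 for LE against LPS, 0.18 for LEKU against LE and -1.80 for LEKU against LPS. Ranked from the lowest difference among 15614 genes, Ciita came at 46 in LE against LPS and at 121 in LEKU against LPS. The value in LEKU was thus 28.7% of that in LPS. Of the annotated exon bases of Ciita, 3.45% lie in exons of Dexi on the opposite strand. The libraries were made with a stranded kit per the methods of the study, but whether reads were counted by strand is not given in the sources used here.

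The 3 genes whose pair of differences (LE minus LPS and LEKU minus LE) was nearest to that of Ciita were sought among the 10285 genes with at least 100 normalized counts in every condition. They were Irf8, St3gal1 and Rftn1, at distances of 0.10, 0.13 and 0.16 on the log2 scale over 3 condition values. Irf8, which encodes an interferon regulatory factor of B and myeloid cells, had 13308 normalized counts in LPS, 3508 in LE and 3760 in LEKU. St3gal1, a sialyltransferase gene, had 2600, 683 and 842 in the same order. Rftn1, which encodes the lipid raft protein raftlin, had 5218, 1471 and 1660. No gene lay within 0.1 of Ciita, whereas 104 lay within 0.1 of H2-Ab1, the nearest being Ambra1, Heg1 and Nsmce1 at 0.0094, 0.010 and 0.011.

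The classical chains differed less than their transactivator, and unequally. H2-Ab1 (ENSMUSG00000073421, chromosome 17, 34257689 to 34269419, plus strand), the I-A beta chain, fell from 17164 normalized counts in LPS to 10778 in LE and stood at 11278 in LEKU. Its log2 differences were -0.67 for LE against LPS, 0.07 for LEKU against LE and -0.61 for LEKU against LPS. The last was past the fold in the scaling used here and not with library totals (-0.48), quantile normalization (-0.34) or undivided columns (-0.42). Its partner H2-Aa (ENSMUSG00000036594, chromosome 17, 34282744 to 34287823, minus strand), the I-A alpha chain, had 24362, 18492 and 18534 normalized counts in LPS, LE and LEKU. That is a log2 difference of -0.40 after etoposide, not past the fold, and of less than 0.01 between LEKU and LE. H2-Eb1 (ENSMUSG00000060586, chromosome 17, 34305867 to 34316674, plus strand), the I-E beta chain, had 19213, 18432 and 17414, with log2 differences of -0.06, -0.08 and -0.14 in the 3 comparisons. The pseudogene that stands for its alpha partner in this strain, H2-Ea-ps, had 0.89, 1.47 and 1.18 and did not pass the filter.

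Levels of different genes were compared per length, as the normalized count per kilobase of annotated exons (the union over transcripts), scaled so that all genes with a length sum to 1000000 (TPM). H2-Aa stood at 0.960 per H2-Ab1 in LPS, 1.16 in LE and 1.11 in LEKU. H2-Eb1 stood at 1.48 per H2-Ab1 in LPS, 2.26 in LE and 2.04 in LEKU, and with the longest transcript as the length at 0.813, 1.24 and 1.12, so that which of them was higher in LPS rests on the length. The order of the I-A chains in level per length therefore changed with etoposide, from H2-Ab1 above H2-Aa to H2-Aa above H2-Ab1, but the 2 were close in every condition and no spread is available to set beside the gap. With the longest transcript in place of the exon union H2-Ab1 stood at 1344, 848 and 917 TPM in LPS, LE and LEKU, above H2-Aa throughout (717, 547 and 567). The change of each ratio between conditions does not depend on the length.

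Cd74 (ENSMUSG00000024610, chromosome 18, 60803848 to 60812652, plus strand), the invariant chain, was the most abundant member in each condition. It had 76627 normalized counts in LPS, 68447 in LE and 65554 in LEKU, with log2 differences of -0.16, -0.06 and -0.23 in LE against LPS, LEKU against LE and LEKU against LPS. None was past the fold. Per length it made up 60.0% of the summed level of the 10 members in LPS, 64.9% in LE and 63.3% in LEKU. Cd74 stood at 6.83 per H2-Ab1 in LPS, 9.71 in LE and 8.89 in LEKU (3.84, 5.46 and 5.00 with the longest transcript), and at 100 per Ciita in LPS, 355 in LE and 300 in LEKU.

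**Figure D2:**
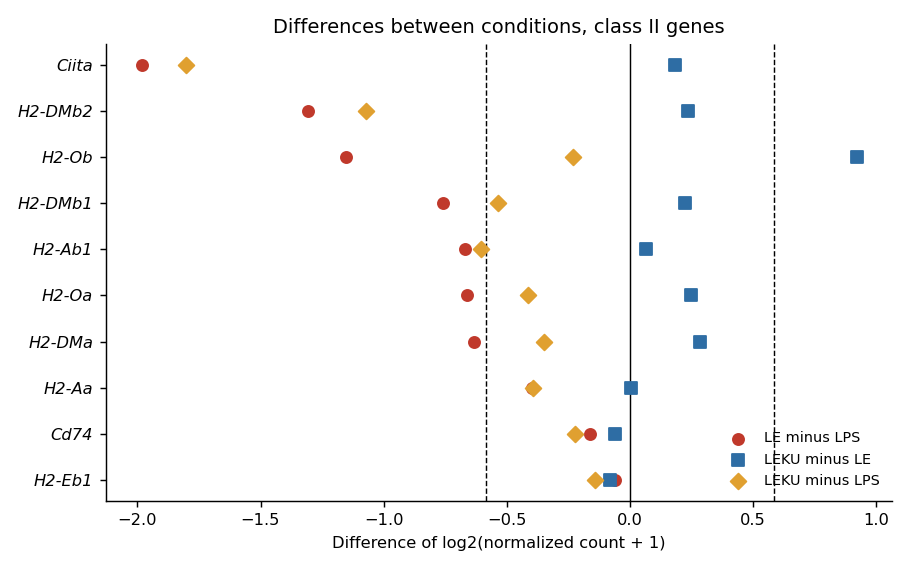
Difference of log2(normalized count + 1) for each class II gene, with circles for LE minus LPS, squares for LEKU minus LE and diamonds for LEKU minus LPS, and dashed lines at 1.5-fold. Genes are in order of LE minus LPS, from Ciita at -1.98 to H2-Eb1 at -0.06, whose sign turns with library totals, quantile normalization or undivided columns, and H2-Ob alone has a square beyond the upper line (0.92).

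Among the peptide editors, H2-M is a dimer of H2-DMa with a beta chain from H2-DMb1 or H2-DMb2, and it catalyses the release of the invariant chain fragment. H2-DMb2 (ENSMUSG00000037548, chromosome 17, 34143307 to 34151555, plus strand) fell from 6210 normalized counts in LPS to 2511 in LE and stood at 2955 in LEKU, log2 differences of -1.31, 0.24 and -1.07 in the 3 comparisons. H2-DMb1 (ENSMUSG00000079547, chromosome 17, 34153072 to 34160230, plus strand) fell from 2001 to 1182 and stood at 1382, with -0.76, 0.23 and -0.53. H2-DMa (ENSMUSG00000037649, chromosome 17, 34119541 to 34139101, plus strand) fell from 2319 to 1496 and stood at 1821, with -0.63, 0.28 and -0.35. Per length, H2-DMb2 stood at 2.99 per H2-DMb1 in LPS, 2.04 in LE and 2.06 in LEKU, so that the ratio of the beta genes was lower in both conditions with etoposide. H2-DMa stood at 0.142 per sum of both beta genes in LPS, 0.203 in LE and 0.210 in LEKU.

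The beta genes are near copies, and their values are uncertain to that extent. Of the 100-base stretches of annotated transcripts, 11.3% in H2-DMb1 and 10.3% in H2-DMb2 occur in both, and how the authors treated reads with several matches is not given in the sources used here. H2-DMa shares 10.4% of its exon bases with Brd2 on the opposite strand, and Brd2 had 8214, 9125 and 11240 normalized counts in LPS, LE and LEKU. If strand was not used in counting, reads in the shared bases cannot be told apart.

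H2-O, the dimer of H2-Oa and H2-Ob that restrains H2-M and is made mainly in B cells, had chains with unlike patterns. H2-Ob (ENSMUSG00000041538, chromosome 17, 34238903 to 34254414, plus strand) had 6180 normalized counts in LPS, 2780 in LE and 5262 in LEKU. Its deposited columns ran from 5179 to 5977 in LPS, from 2660 to 3611 in LE and from 4737 to 5817 in LEKU. Within a condition these columns differ by the library factor alone and show no replicate error. The log2 differences were -1.15 for LE against LPS, 0.92 for LEKU against LE (1.89-fold) and -0.23 for LEKU against LPS, the last turning to 0.04 under quantile normalization. Ranked from the highest difference in LEKU against LE, it came at 346 among 15614 genes. H2-Ob was the 1 member whose value in LEKU was within 1.5-fold of LPS and past 1.5-fold of LE.

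H2-Oa (ENSMUSG00000024334, chromosome 17, 34092340 to 34095234, plus strand) fell from 551 normalized counts in LPS to 348 in LE and stood at 414 in LEKU. Its log2 differences were -0.66, 0.25 and -0.41. Per length, H2-Ob stood at 2.93 per H2-Oa in LPS, 2.09 in LE and 3.33 in LEKU (5.63, 4.00 and 6.39 with the longest transcript), and at 1.71, 1.19 and 1.85 per H2-DMa. H2-Oa stood at 0.583, 0.571 and 0.556 per H2-DMa in LPS, LE and LEKU (0.356, 0.349 and 0.340 with the longest transcript). Of the exon bases of H2-Oa, 22.8% lie in exons of BC051537 on the opposite strand, which had 10.3, 8.57 and 10.1 normalized counts.

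Levels of the members were ordered on the same TPM scale, which covers 99.5% of the genes that passed the filter. In LPS, Cd74 stood at 5632 TPM, H2-Eb1 at 1220, H2-Ab1 at 825, H2-Aa at 792 and H2-DMb2 at 439. Below them came H2-DMb1 at 147, H2-Ob at 142, H2-DMa at 83.0, Ciita at 56.1 and H2-Oa at 48.4. With the longest transcript H2-Ab1 (1344) stood above H2-Eb1 (1093) in LPS. Cd74 ranked 7 among 15535 genes, and Ciita 3255.

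With etoposide the order changed at the lower end. In LE, Ciita stood at 14.2 TPM, rank 8202, below H2-Oa at 30.6, rank 5327. H2-Ob stood at 63.8 in LE, below H2-DMb1 at 86.8, and at 125 in LEKU, above H2-DMb1 at 105. Cd74 ranked 10 in LE and in LEKU. The sum of the 10 members was 9382 TPM in LPS, 7749 in LE and 7873 in LEKU. Whether close neighbours such as H2-DMb1 and H2-Ob in LPS, or H2-Ab1 and H2-Aa, differ beyond replicate error cannot be shown with 1 value per condition. With the longest transcript as the length, H2-Ob stood at 220, 99.3 and 194 in LPS, LE and LEKU, above H2-DMb1 (135, 80.3 and 97.0) in all 3, so that their order rests on the length chosen.

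**Figure D3:**
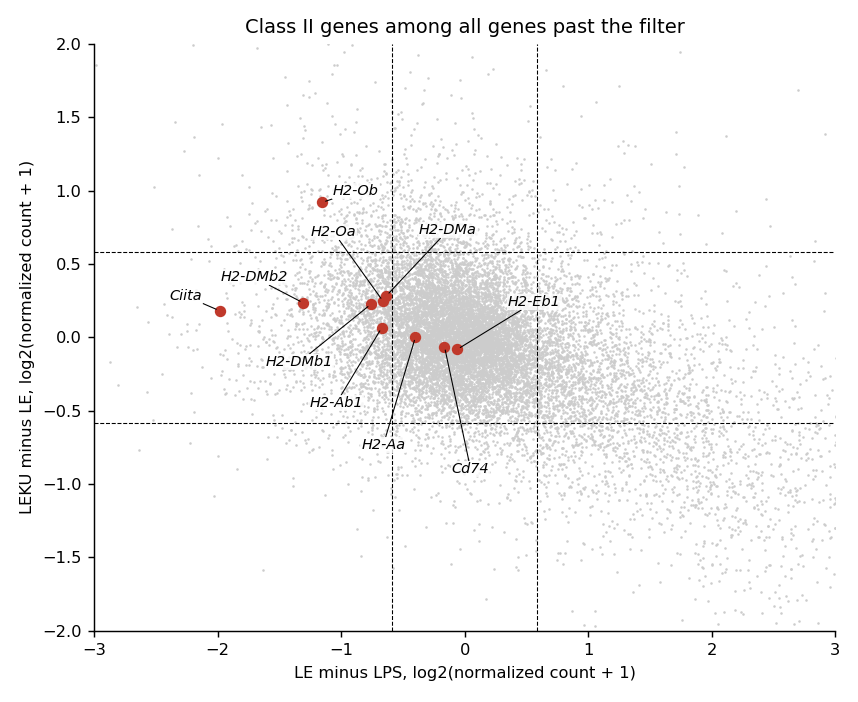
LE minus LPS on the horizontal axis against LEKU minus LE on the vertical axis, both differences of log2(normalized count + 1), for genes past the filter (grey) and the class II genes (red), with dashed lines at 1.5-fold. The axes share the LE value, and 394 genes lie outside the limits of 3 and 2. Ciita sits at -1.98 and 0.18, among few genes, and H2-Ob at -1.15 and 0.92.

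Of the members, 8 lie in the class II region of chromosome 17, where 19 genes of the table fall between 34092340 and 34341412 (GRCm38). The 11 others include the class I peptide transporter genes Tap1 and Tap2, the immunoproteasome genes Psmb8 and Psmb9 and the chromatin reader gene Brd2, and 10 of them passed the filter. In LE against LPS, 6 of the 8 members in the region were lower and none was higher, with a median log2 difference of -0.67. Of the 10 others 1 was lower and none higher, with a median of 0.08 and a range from -0.97 to 0.35. Among all genes past the filter, 14.4% were lower and 23.4% higher, with a median of 0.04. Tap1 differed by 0.35, Tap2 by 0.16, Brd2 by 0.15, Psmb9 by 0.02 and Psmb8 by -0.36. In chromosomal order these 5 genes stand between class II genes, with Brd2 next to H2-Oa and H2-DMa and the others between H2-DMb1 and H2-Ob.

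The single other gene of the region that was lower was H2-Eb2, a class II beta chain gene that is no member. It had 1010 normalized counts in LPS, 514 in LE and 883 in LEKU. Its log2 differences were -0.97, 0.78 and -0.19, so that, like H2-Ob, it was past 1.5-fold of LE in both other conditions. It was listed beside the members as 1 of 2 further class II loci, the other being H2-Ea-ps. In LEKU against LE the 10 others had a median of 0.21, beside 0.23 for the 8 members and -0.05 for all genes. Besides H2-Eb2, which was higher, 1 of them was lower, the predicted gene Gm20513 at 24.9, 31.5 and 20.2 normalized counts in the 3 conditions. Among all genes, 11.9% were lower and 6.93% higher in that comparison.

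**Figure D4:**
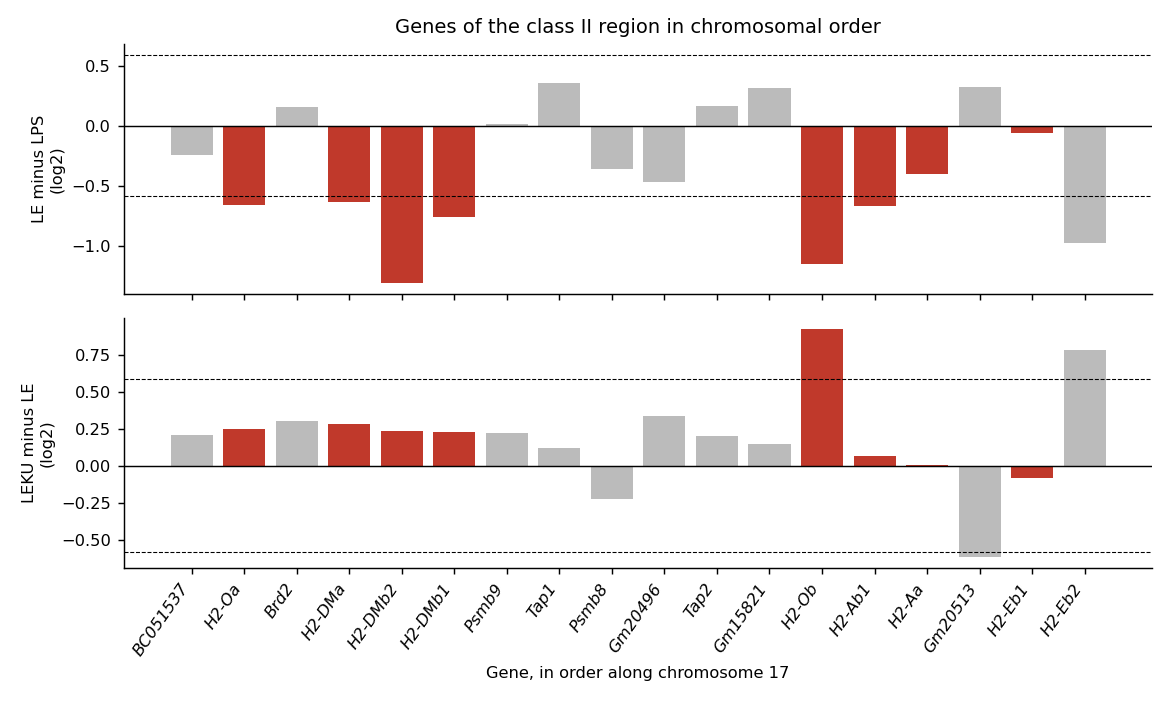
Genes of the class II region in their order along chromosome 17, class II members in red and other genes in grey, with LE minus LPS above and LEKU minus LE below as differences of log2(normalized count + 1) and dashed lines at 1.5-fold. In the upper panel bars past the lower line belong to class II genes (H2-DMb2 at -1.31 and H2-Eb2 at -0.97, for example), and in the lower panel H2-Ob (0.92) and H2-Eb2 (0.78) stand past the upper line.

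Of the 7 genes of the RFX, NF-Y and CREB factors, which bring Ciita to the promoters, 1 was lower and 2 were higher in LE against LPS, close to the 14.4% lower and 23.4% higher of all genes. Their median log2 difference was -0.05, beside 0.04 for all genes. Rfx5, the DNA-binding subunit of RFX, fell from 1574 normalized counts in LPS to 660 in LE and stood at 809 in LEKU, log2 differences of -1.25 and 0.29. Rfxank, another RFX subunit, rose from 545 to 1080 and stood at 843. The third subunit gene, Rfxap, had 341, 330 and 396. Nfyb, of the NF-Y complex that binds the Y box, rose from 1293 to 4934 (1.93) and fell to 2814 in LEKU (-0.81 against LE). Its partners Nfya and Nfyc had 3117, 3173 and 2837, and 1346, 946 and 856. In LEKU against LE, Nfyb was the 1 gene of the 7 that was lower, and none was higher. Of all genes, 11.9% were lower and 6.93% higher in that comparison. In LEKU against LPS, Rfx5 (-0.96) and Nfyc (-0.65) were lower, and Nfyb (1.12) and Rfxank (0.63) were higher. The shares of all genes there were 14.2% lower and 22% higher.

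Of 6 listed factors known to act on Ciita itself, 1 was lower and none was higher in LE against LPS. Their median log2 difference was -0.08, and of all genes 14.4% were lower and 23.4% higher. The list is a selection and does not hold Irf8, the gene nearest to Ciita above (-1.92 in LE against LPS). Tcf3, which encodes the E2A proteins that occupy the B cell promoter of Ciita, fell from 4887 normalized counts to 2197 and stood at 3131 in LEKU, with -1.15, 0.51 and -0.64 in the 3 comparisons. Irf4, a regulator of plasma cell formation, had 10720 in LPS and 11942 in LE and fell to 6083 in LEKU (-0.97 against LE). Prdm1, whose product Blimp-1 silences Ciita in plasma cells, had 2303, 1742 and 1230, and was lower in LEKU against LPS (-0.90). Irf1, at 1886, 2322 and 2609, had the highest difference of the 6 in LE against LPS (0.30). In LEKU against LPS, 3 of the 6 were lower, namely Tcf3, Irf4 (-0.82) and Prdm1, and none was higher. Of all genes, 14.2% were lower and 22% higher there.

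Of 9 genes for enzymes that process antigen and invariant chain, none was lower, 3 were higher and 6 did not pass the fold in LE against LPS. Of all genes, 14.4% were lower and 23.4% higher. Their median log2 difference was 0.20, beside 0.04 for all genes. The aspartic protease gene Ctsd rose from 1928 to 4793 normalized counts and stood at 3436 in LEKU. The cysteine protease gene Ctsl rose from 144 to 324 and stood at 429, and Ctsb rose from 2227 to 4201 and stood at 3073. Ctss, the protease that trims the invariant chain in B cells, had 6008, 5643 and 5222, with none of its differences past the fold. Beside 6.93% higher and 11.9% lower of all genes in LEKU against LE, 2 of the 9 were higher and none was lower. These were Lgmn, the asparaginyl endopeptidase gene, at 2166, 1849 and 3145 (0.77 against LE), and Sppl2a, whose product removes the last membrane stub of the invariant chain, at 3644, 4209 and 6742 (0.68). The lowest was Ctsz at -0.52. In LEKU against LPS, Ctsd (0.83), Ctsl (1.57) and Sppl2a (0.89) were higher, beside 22% of all genes. None of the 9 was lower there, beside 14.2% of all genes.

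Of the 3 genes that set how long class II molecules stay at the surface, none passed the fold in LE against LPS. Of all genes, 14.4% were lower and 23.4% higher there. March1, the ubiquitin ligase that marks class II molecules for degradation, had 449, 653 and 272 normalized counts, and its fall in LEKU against LE (-1.26) was the largest among the genes of these 4 lists. Cd83, which opposes March1, had 12072, 8397 and 12888 and rose in LEKU against LE (0.62). March8, a related ligase gene, had 97.1, 125 and 182, with a log2 difference of 0.54 in LEKU against LE. In that comparison 1 of the 3 was lower and 1 higher, beside 11.9% lower and 6.93% higher of all genes. In LEKU against LPS, March1 was lower (-0.72) and March8 higher (0.90), beside 14.2% lower and 22% higher of all genes.

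**Figure D5:**
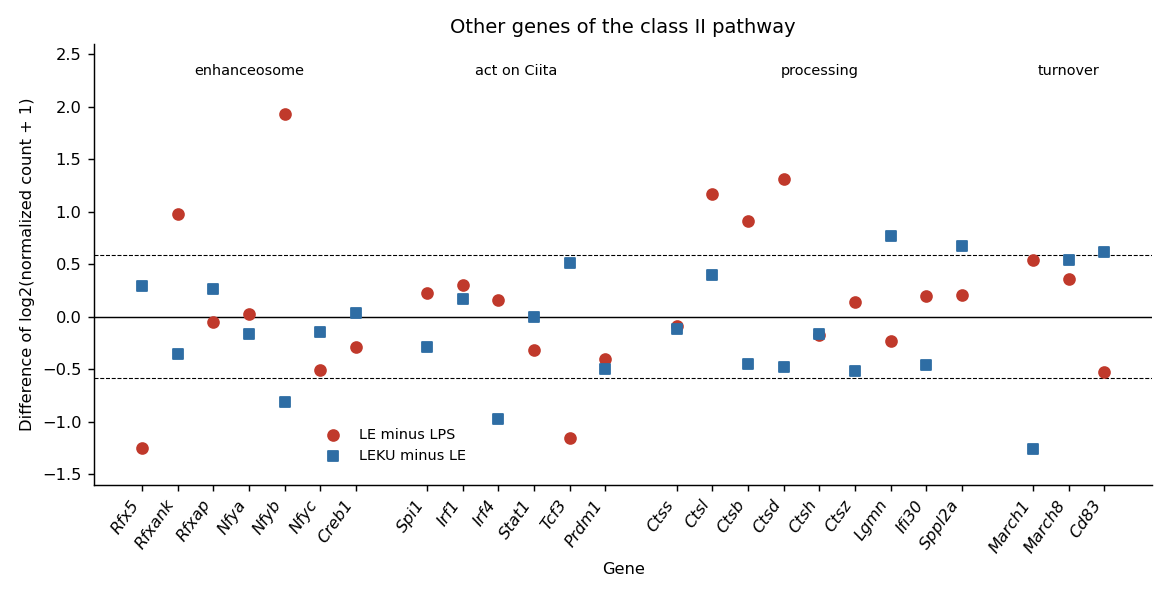
Difference of log2(normalized count + 1) for the other genes of the pathway in 4 lists, with circles for LE minus LPS, squares for LEKU minus LE and dashed lines at 1.5-fold. In LE minus LPS, Rfx5 (-1.25) and Tcf3 (-1.15) lie below the lower line, and Nfyb (1.93), Ctsd (1.31), Ctsl (1.17), Rfxank (0.98) and Ctsb (0.92) above the upper one.

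Of 7 B cell markers 5 were lower in LE against LPS, beside 14.4% of all genes, and all 7 differences were below 0, beside 47.1% of all genes. Their median was -1.47, beside 0.04 for all genes. Their summed level was 117021 normalized counts in LPS, 60467 in LE and 57663 in LEKU. Pax5, the factor that maintains B cell identity, fell from 5408 to 1139 and stood at 1175, and the inhibitory receptor gene Cd22 fell by 2.44 on the log2 scale. The others that fell were Fcer2a (-1.84), Cr2 (-1.47) and Cd79b (-0.62), whereas Ms4a1 (-0.55) and Cd79a (-0.46) did not pass the fold. In LEKU against LE, Ms4a1 fell (-0.64) and none rose, beside 11.9% lower and 6.93% higher of all genes. In LEKU against LPS, 5 of the 7 were lower and all 7 differences were below 0, with a median of -1.67. Of all genes, 14.2% were lower there, 45.6% were below 0, and the median was 0.07. The part of these changes in the class II values was not tested.

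The plasmablast markers in the table, 4 of them, had summed levels of 13696, 14332 and 10075 in LPS, LE and LEKU. Among them Sdc1, the plasma cell surface proteoglycan, rose from 135 to 1984 normalized counts in LE and stood at 641 in LEKU, and Jchain, the joining chain of secreted antibody, had 3827, 5206 and 2724 (-0.93 for LEKU against LE). The other 2 lay lower in LE than in LPS without passing the fold, namely Xbp1, a factor of secretory cells, at 7430, 5400 and 5479 (-0.46) and Prdm1 (-0.40), so that the median of the 4 was 0.02. The 5 macrophage markers in the table summed to 402, 451 and 394 normalized counts in the 3 conditions. Of these, Csf1r (4.08, 10.5 and 9.79) and Cd68 (102, 215 and 177) were higher and Itgam (215, 131 and 116) was lower in LE against LPS, and Lyz2 (33.5, 48.8 and 51.6) was higher in LEKU against LPS. The 7 dendritic cell markers summed to 2881, 1941 and 3429, of which Flt3 held 2733, 1677 and 2966. Zbtb46 had 101, 184 and 410 and Xcr1 40.2, 70.9 and 45.6, while Clec9a, Siglech and Cd209a were each under 2 in every condition. The 6 T cell markers summed to 421, 319 and 283, of which Lck held 414, 299 and 271, while Trac had 2.83, 13.9 and 5.45, and Cd3e, Cd3g, Cd4 and Cd8a were each under 2. The part of the plasmablast, dendritic cell and other markers in the class II values was not tested.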

How the data were processed

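Polyadenylated RNA of 12 libraries was sequenced (mRNAseq). Per the labels and the methods of the study, the authors trimmed reads with cutadapt 1.2.1 and Trim Galore, mapped them to GRCm38 with TopHat2 2.0.12, counted reads per Ensembl gene (HTSeq) and fitted DESeq2 1.6.3. The deposited table holds a normalized signal per gene and library (29486 genes, 12 columns), which carries no replicate spread, so that the limma test and the replicate block foreseen were not run. Whether the authors' fit moved differences toward 0 is not given in the sources used here. The 3 deposited comparison tables hold the authors' mean, fold change, standard error, Wald statistic, p-value and adjusted p-value, and were not used.

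Columns were divided by median-of-ratios factors over the 13712 genes with at least 10 in every column and averaged by condition. Genes with at least 10 in at least 1 condition were kept, and differences are on the log2(value + 1) scale, which understates changes of low genes. The depth behind a single value is not recorded, so that no counting interval is given. Lengths came from GENCODE M21. Duplicate names (17 in the table) did not touch the members. The genes named are all members, every list gene past 1.5-fold and the highest and lowest otherwise, and the 3 nearest to Ciita and to H2-Ab1. The members and lists were chosen with earlier results of these data known, and 2 list names, older symbols, were not in the table. Beside the 7 B cell markers given, 1 further marker is not reported here. The functions were run on simulated data without replicate or counting noise, with changes set past the fold. That checks the computation only and says nothing about replicate error. Alternatives were library totals, TMM factors, quantile normalization, pseudocounts of 0.5 and 5, no filter or a minimum of 50, folds of 1.2 and 2, and the longest transcript as length, and, chosen after seeing the data, factors from all genes, undivided columns, and only genes with at least 100 in every condition. Python 3.11.15 with numpy 2.4.6, pandas 2.3.3 and matplotlib 3.10.9 was used.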

Additional observations from a re-analysis of the deposited data

How the results depend on the processing

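No paired analysis was possible because the deposited columns hold the fitted value of a condition and no measurement of a single replicate, and leaving out each replicate was not run for the same reason. Of 210 recomputed differences of members none reversed a call, 10 were no longer past the fold and 1 passed it (H2-DMb1 in LEKU against LPS, -0.64 with factors from all genes). Ciita stayed between -2.13 and -1.71 in LE against LPS, and H2-Ob between 0.83 and 1.04 in LEKU against LE. The median of all genes in LE against LPS, 0.04 here, was -0.10 under quantile normalization, -0.11 with factors from all genes and 0.32 with undivided columns, and in LEKU against LPS, 0.07 here, 0.20 with library totals and 0.26 with undivided columns. Relative to that median all 10 members were lower in LE against LPS in each setting except quantile normalization, where H2-Eb1 stood at 0.17. The margin of H2-Eb1 was small, at -0.10 here, -0.05 with a minimum of 50 and -0.01 with at least 100 in every condition. Library factors shift all genes of a condition nearly alike, so that settings which change only the factors could not alter these positions relative to the median. In LEKU against LPS, 8 of the 10 lay below the median under quantile normalization, with H2-Eb1 at 0.10 and H2-Ob at 0.06 above it.

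Lower and higher genes in LE against LPS, 2242 and 3651 here, were 3394 and 2728 under quantile normalization, 3138 and 3066 with factors from all genes, 1147 and 5262 with undivided columns, 808 and 2356 at 2-fold, 4643 and 5549 at 1.2-fold, 1932 and 2368 with a minimum of 50, and 1609 and 1365 with at least 100 in every condition. In LEKU against LE, 1863 and 1082 here, they were 1508 and 1461 under quantile normalization, 2394 and 811 with undivided columns, 732 and 267 at 2-fold, 4503 and 3257 at 1.2-fold, 1201 and 828 with a minimum of 50, and 608 and 548 with at least 100. In LEKU against LPS, 2222 and 3430 here, they were 1619 and 4194 with library totals, 2737 and 2639 under quantile normalization, 1398 and 4675 with undivided columns, 837 and 1865 at 2-fold, 4548 and 5687 at 1.2-fold, and 1580 and 1296 with at least 100. Of the members, 3 of 7 stayed lower in LE against LPS at 2-fold and 3 with undivided columns. In LEKU against LE, 0 were higher at 2-fold and 2 at 1.2-fold, and in LEKU against LPS 7 were lower at 1.2-fold. The folds and filters act by their construction, and the cause of the shifts between scalings was not tested.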
